A study of Mus musculus with 8 samples.

Results

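The neuronal nicotinic receptor subunits, the proteins that nicotine binds outside skeletal muscle, were read in tissue labelled as palate of newborn BALB/c mice. Members were the probe sets annotated to Chrna2, Chrna3, Chrna4, Chrna5, Chrna6, Chrna7, Chrna9, Chrnb2, Chrnb3 or Chrnb4 and to no other gene. This gave 22 probe sets for 10 genes, of 18193 genes with a probe set of their own. Pregnant dams carried an osmotic minipump, implanted under the skin, holding sterile saline, or nicotine delivered at a dose of 1.5, 3.0 or 4.5 mg/kg/day, and RNA came from the rear part of the palate of pups on postnatal day 1. Each of the 4 groups had 2 Affymetrix arrays, labelled as biological replicates. The labels mention 2 pups without saying whether they shared an array or a dam, and p-values then measure only how far these samples spread, which may be technical. No genotype other than the strain is given, and saline and nicotine groups differed, per the labels, only in what the pump held.

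Nicotinic receptors are channels of 5 subunits around a pore that opens when acetylcholine binds. Nicotine opens many of them, but not all. Alpha4 with beta2, and alpha7 alone, are the common receptors of the brain. Alpha3 with beta4, often with alpha5, carries transmission in autonomic ganglia. Alpha6 and beta3 are typical of dopamine neurons, alpha2 of a few brain nuclei, and alpha9 of hair cells in the inner ear. Keratinocytes, mucosal epithelia and immune cells are also known to make several of these subunits. Skeletal muscle uses a separate set, alpha1, beta1, delta and either gamma or epsilon.

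RefSeq promoter windows (build GRCm38.p6) were held for 7 of the 10 genes, in 8 entries because Chrna5 had 2. The windows of the 4 genes whose level allowed a test are printed, as the 250 bases before a listed transcription start, 5′ to 3′. Whether the signals described next come from these starts was not examined. The Chrna9 and Chrna4 windows lie inside their genes, which span chr5:65934854-65977486 and chr2:181022311-181043579. Capitals mark a GC box (GGGCGG), to which Sp1-type factors bind, or an E box (CAGCTG), to which myogenic and neurogenic factors bind. Both strands were searched, and in these 4 windows no base lay in more than 1 match.
Chrna3, chr9:55026563-55026812 (minus strand): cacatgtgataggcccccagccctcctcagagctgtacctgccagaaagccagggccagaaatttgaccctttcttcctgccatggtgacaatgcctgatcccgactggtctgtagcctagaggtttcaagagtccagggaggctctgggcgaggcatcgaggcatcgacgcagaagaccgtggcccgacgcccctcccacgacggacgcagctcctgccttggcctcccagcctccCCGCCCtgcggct
Chrna4, chr2:181039178-181039427 (minus strand): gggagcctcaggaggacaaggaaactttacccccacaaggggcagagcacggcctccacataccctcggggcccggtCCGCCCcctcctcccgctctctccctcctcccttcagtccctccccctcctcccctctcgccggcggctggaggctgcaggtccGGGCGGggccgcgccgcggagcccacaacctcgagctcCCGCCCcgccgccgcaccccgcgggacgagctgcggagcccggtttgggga
Chrna9, chr5:65966874-65967123 (plus strand): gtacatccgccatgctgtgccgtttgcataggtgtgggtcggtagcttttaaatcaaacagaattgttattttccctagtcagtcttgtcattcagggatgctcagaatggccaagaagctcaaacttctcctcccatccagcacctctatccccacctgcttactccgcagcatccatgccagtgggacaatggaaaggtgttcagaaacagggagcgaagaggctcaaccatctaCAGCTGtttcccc
Chrnb2, chr3:89764633-89764882 (minus strand): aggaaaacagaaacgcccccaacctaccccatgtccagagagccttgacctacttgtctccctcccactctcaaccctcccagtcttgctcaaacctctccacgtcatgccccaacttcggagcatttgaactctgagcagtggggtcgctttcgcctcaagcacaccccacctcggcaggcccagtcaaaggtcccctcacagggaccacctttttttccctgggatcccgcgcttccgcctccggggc
The Chrna4 window held 3 GC boxes and was the richest in G and C of the 8, at 74.4%. Chrna3 held 1 GC box, Chrna9 held 1 E box, and Chrnb2 held neither. Over the 8 member windows 4 had a GC box and 2 an E box, where 32.7% and 13.0% of 32851 windows in the whole table had them. The median G and C content of all windows was 52.4%. These are matches of letters and were not set against the measured levels.

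The arrays differed in what tissue they held. Array medians lay between 20.7 and 25.4 in deposited intensity. The 9 stomach genes had a median log2 level of 8.58 and 8.93 in the saline arrays and of 4.61 to 4.83 in the nicotine arrays. The 7 liver genes had medians of 9.46 and 11.52 in saline and 10.01 in nicotine 1.5 replicate 2, and of 4.27 to 5.17 elsewhere. The 6 lung genes had medians of 7.50 to 10.47 in 5 nicotine arrays and of 4.53 to 4.62 in saline and nicotine 1.5 replicate 1. The 8 palate and oral patterning genes had medians of 5.14 to 5.64, with 5 to 7 of them above background in each array. The 8 keratinocyte genes had medians of 6.33 to 7.85 in 7 arrays and of 10.5 in nicotine 1.5 replicate 1. Actin probe sets at the 3' end read 1.65 and 1.74 times those at the 5' end in saline and 0.95 to 1.39 times in the nicotine arrays, a measure of how intact the RNA is. Nicotine treatment and these differences in tissue cannot be told apart. In bulk tissue fewer cells of a type and less RNA per cell cannot be told apart.

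Most neuronal subunits lay at background. The file holds no detection calls, so background was read from 80 probe sets for olfactory and vomeronasal receptors, genes of sensory neurons in the nose. A member was above background in an array where its normalized level exceeded the 95th percentile of those probe sets, which was a log2 level of 4.93 to 5.26, or an intensity of about 16.3 to 21.6. Of 22 member probe sets, 14 were above it in no array, 5 in 1 to 4 arrays and 3 in 5 or more. Over all probe sets 31.7% were above it in no array and 51.6% in 5 or more. No member probe set was above it in all 8 arrays. Over all genes, 67.4% had their highest probe set above background in 5 or more arrays, against 3 of these 10. Chrnb2, Chrna9 and Chrna3 each had a probe set above background in 5 or more arrays. For Chrna4 1 probe set was above it in 3 arrays and another in 2 different ones, and for Chrna7 1 probe set in 1 array. Chrna2, Chrna5, Chrna6, Chrnb3 and Chrnb4 were above it in none.

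**Figure D1:**
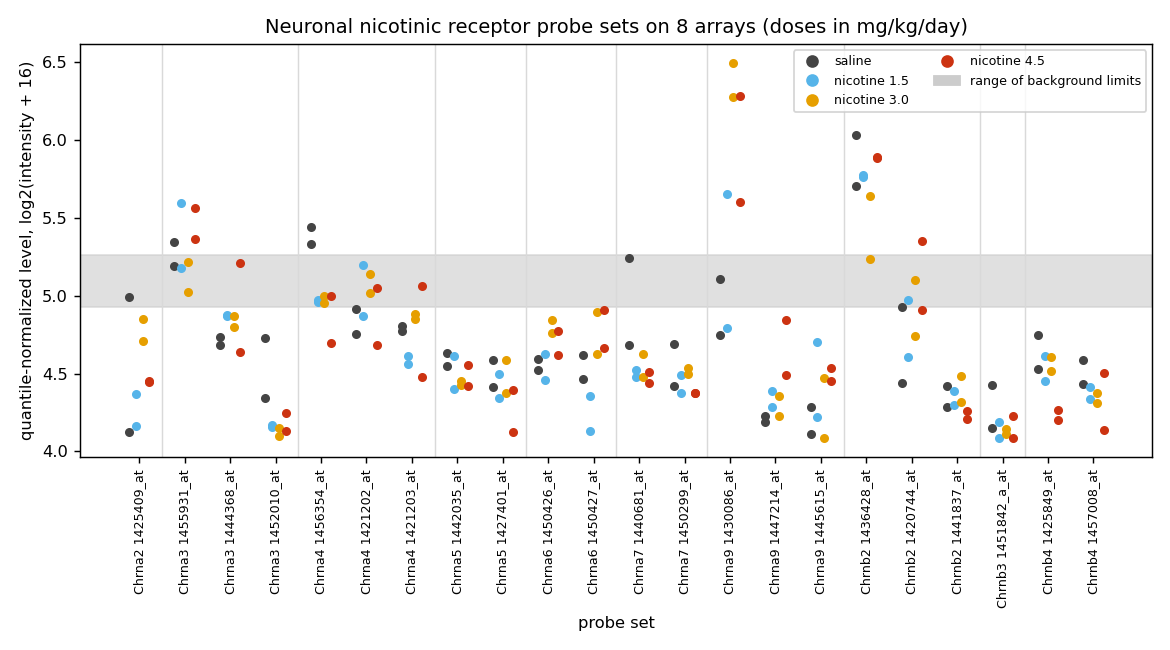
Quantile-normalized level, as log2(intensity + 16), of each of the 22 member probe sets on each of the 8 arrays, 1 point an array, coloured by group; the grey band spans the 8 arrays' background limits, 4.93 to 5.26. Most points lie under the band, and 1 probe set each of Chrna9, Chrnb2 and Chrna3 lies above its array's limit in 6, 7 and 6 arrays.

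The ganglion subunits Chrna5 and Chrnb4 were not detected above background. The 2 Chrna5 probe sets ranged from 1.46 to 9.76 in intensity and the 2 Chrnb4 probe sets from 1.67 to 10.5. Chrna5, Chrna3 and Chrnb4 are neighbours in the mouse genome, and of the 3 only Chrna3 had a probe set above background in this reading. Values under the limit have no order, and probe sets differ in how strongly they bind, so no subunit is ranked against another.

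Chrna2, Chrna6 and Chrnb3 were likewise at background. Chrna2 had intensities of 1.56 and 15.6 in the 2 saline arrays and of 1.92 to 12.7 in the nicotine arrays. Its 2 saline readings spanned all the others. Chrna6, another neighbour pair with Chrnb3, stayed between 1.48 and 13.6 in its 2 probe sets, and Chrnb3, a structural partner of alpha6, between 1.0 and 5.4 in its only one.

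Chrna7, which forms receptors from alpha7 alone, stood above background in 1 array. Its probe set 1440681_at read 25.0 in saline replicate 1, 9.46 in saline replicate 2 and 5.72 to 8.60 in the 6 nicotine arrays. All nicotine arrays lay below both saline arrays, with 1 saline array far above the other. With no level filter 11.1% of all genes showed that order, and all Chrna7 readings but 1 were at background. The second probe set, 1450299_at, which was built on a RefSeq transcript, ranged from 4.39 to 9.58 and was above background nowhere. The same saline array was the highest in neuronal markers. In it 15 of 16 genes of autonomic and sensory neurons were above background, with a median log2 level of 7.35, against 5 to 12 genes and medians of 4.75 to 5.64 in the other arrays. Their summed intensity was 4402 there and 284 to 1143 elsewhere. Nefm, a neurofilament, read 1166 in that array and 20.6 to 391 in the others, while Th, the enzyme that starts noradrenaline synthesis, was above background in no array. The part of neuronal tissue in the Chrna7 reading was not tested.

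Chrna3, the agonist-binding subunit of ganglia, was just above background in most arrays. Probe set 1455931_at read 28.2 and 20.4 in saline, 32.0 and 22.0 at nicotine 1.5, 20.5 and 16.1 at 3.0, and 29.0 and 23.8 at 4.5 mg/kg/day. The nicotine 3.0 arrays fell under the limit, and as deposited the saline range overlapped each nicotine group. In normalized log2 level both nicotine 4.5 arrays lay above saline, at 5.56 and 5.37 against 5.35 and 5.19. The share of all genes in that order was not counted. The difference from saline was 0.12 ± 0.21 log2 units (SE) at 1.5, -0.15 ± 0.21 at 3.0 and 0.19 ± 0.21 at 4.5 mg/kg/day (limma adjusted p from 0.559 to 0.787). The other 2 probe sets of the gene were under the limit, except for 1444368_at at 19.8 in nicotine 4.5 replicate 2. One of them, 1452010_at, was built on an mRNA record and read 11.8 and 4.19 in saline and 1.09 to 2.87 under nicotine.

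Chrnb2, the beta subunit of the main brain receptor, gave the steadiest signal above background of the 22 probe sets, in 7 of 8 arrays. Probe set 1436428_at read 41.4 and 51.4 in saline, 38.2 and 42.0 at nicotine 1.5, 20.9 and 32.3 at 3.0, and 39.9 and 40.2 at 4.5 mg/kg/day. Both nicotine 3.0 arrays lay below both saline arrays, an order not counted over all genes. Nicotine 3.0 replicate 1 was under the limit, while the nicotine 4.5 arrays lay close to saline replicate 1. The difference from saline was -0.10 ± 0.21 log2 units at 1.5, -0.43 ± 0.21 at 3.0 and 0.02 ± 0.21 at 4.5 mg/kg/day (limma adjusted p = 0.825, 0.245 and 0.962). The probe set built on the RefSeq transcript, 1420744_at, read 6.17 and 14.2 in saline and 8.52 to 23.4 under nicotine, and passed the limit in nicotine 4.5 replicate 2 alone. The third, 1441837_at, read 2.38 to 6.49. The 3 probe sets of Chrnb2 thus gave different readings of whether the gene was above background.

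Chrna4, the agonist-binding partner of beta2, was above background in both saline arrays. Probe set 1456354_at read 27.8 and 27.4 in saline, 14.7 and 16.4 at nicotine 1.5, 14.7 and 15.7 at 3.0, and 15.04 and 9.62 at 4.5 mg/kg/day. All 6 nicotine arrays lay below both saline arrays, as they did for 12.6% of all genes tested. Of these arrays 5 were under the background limit. The difference from saline was -0.42 ± 0.17 log2 units at 1.5, -0.41 ± 0.17 at 3.0, -0.54 ± 0.17 at 4.5 mg/kg/day and -0.46 ± 0.14 for the mean of the doses (limma adjusted p = 0.231, 0.203, 0.102 and 0.0857). The gene did not pass in any of these. Its mean over the nicotine arrays, a log2 level of 4.93, lay under the level filter of 4.945, so it entered the test through the saline arrays. The other 2 probe sets did not share this pattern. 1421202_at read 12.4 and 13.8 in saline, under the limit, and 9.38 to 20.6 under nicotine, where it passed the limit in nicotine 1.5 replicate 1 and nicotine 3.0 replicate 2. 1421203_at was at background throughout and read 13.5 and 10.98 in saline and 6.07 to 16.5 under nicotine. Stomach genes and the actin ratio were also higher in both saline arrays than in every nicotine array. Of the 9 stomach genes 8 or 9 were above background in saline, with a summed intensity of 10483 and 10774, against 2 or 3 genes and 160 to 180 under nicotine. Their part in the Chrna4 reading was not tested.

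**Figure D2:**
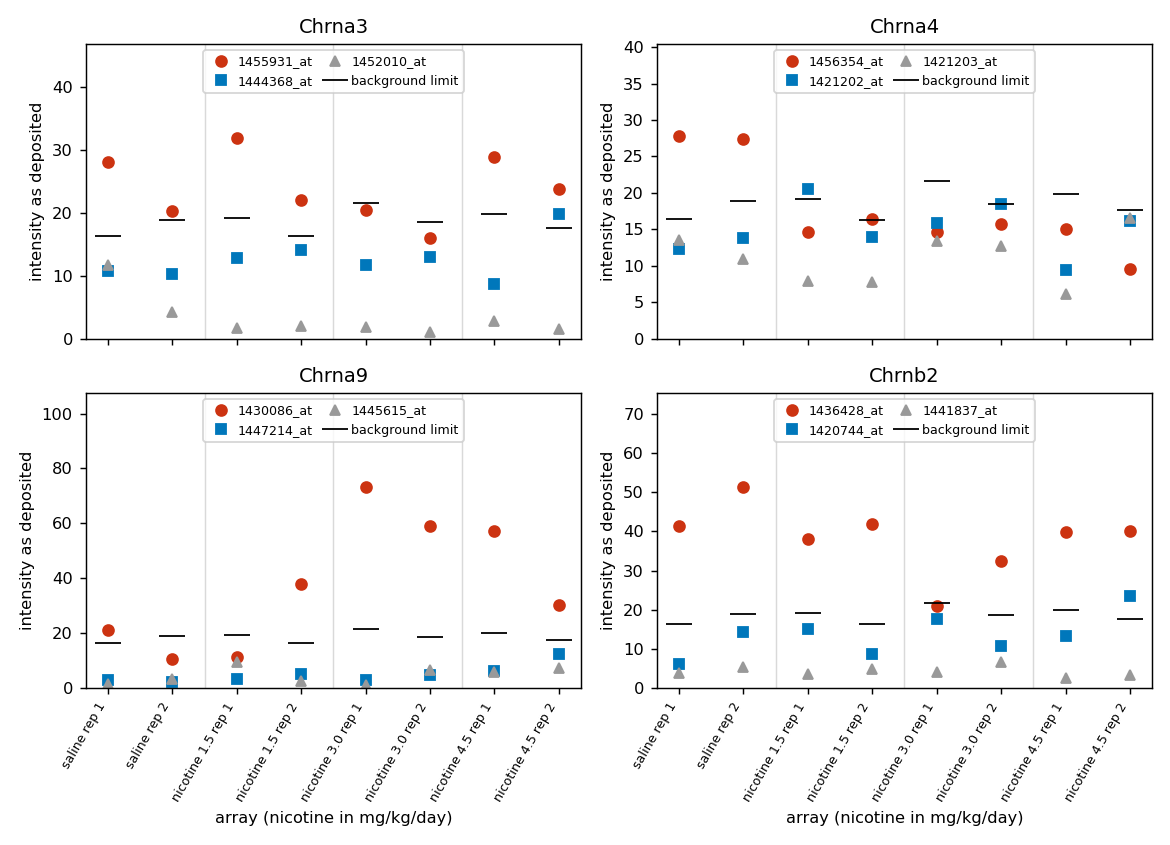
Deposited intensity of the 3 probe sets each of Chrna3, Chrna4, Chrna9 and Chrnb2 on each array, in order of dose; black bars give each array's background limit as the same percentile of deposited intensities. For Chrna9 all 6 readings above the bars belong to 1 probe set, which reads up to 73.1, whereas for Chrna4 1 probe set passes its array's bar in 3 arrays and another in 2.

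Chrna9, the hair cell subunit, had the largest differences among the 10 genes at 3.0 and 4.5 mg/kg/day and for the mean of the doses. Probe set 1430086_at read 21.2 and 10.5 in saline, 11.3 and 37.8 at nicotine 1.5, 73.1 and 59.2 at 3.0, and 57.3 and 30.3 at 4.5 mg/kg/day. The 2 arrays at 3.0 and the 2 at 4.5 mg/kg/day lay above both saline arrays. How many of all genes showed that order at those doses was not counted. No tested member had all 6 nicotine arrays above both saline arrays, as 16.8% of all genes tested did. The arrays at 1.5 mg/kg/day lay apart, with log2 levels of 5.23 ± 0.61 (SD, n = 2) against 4.93 ± 0.26 (SD, n = 2) in saline, and replicate 1 stayed at background with saline replicate 2. The difference from saline was 0.30 ± 0.35 log2 units at 1.5, 1.46 ± 0.35 at 3.0, 1.01 ± 0.35 at 4.5 mg/kg/day and 0.92 ± 0.29 for the mean of the doses (limma adjusted p = 0.669, 0.0722, 0.118 and 0.0852). None passed an adjusted p of 0.05. The saline mean, a log2 level of 4.93, lay under the level filter of 4.945, so the gene entered the test through the nicotine arrays. Without nicotine 1.5 replicate 1 the adjusted p was 0.0490 at 3.0 mg/kg/day and 0.0463 for the mean of the doses, and without nicotine 1.5 replicate 2 it was 0.0487 at 3.0.

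The 3 Chrna9 probe sets gave different readings. 1447214_at read 2.90 and 2.20 in saline and 2.81 to 12.2 under nicotine, and 1445615_at read 1.39 and 3.38 in saline and 1.0 to 9.57 under nicotine. Both were built on expressed sequence tags and were at background in all 8 arrays, whereas 1430086_at was built on a cDNA or mRNA record. None of the 3 was built on a RefSeq transcript. Whether 1430086_at lies in the coding Chrna9 transcript was not examined here, and its values are those of this probe set.

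The genes most like Chrna9 over the 8 arrays were genes of mitochondria. Among 13586 genes the highest correlations with 1430086_at were those of Sucla2, a subunit of succinyl-CoA ligase (r = 0.985), Ndufb11, a subunit of respiratory complex I (r = 0.982), and Idh3a, a subunit of isocitrate dehydrogenase (r = 0.981). These are the highest of many values over 8 shared arrays and describe these arrays only. Sucla2 read 1269 and 1181 in saline, 964 and 1632 at nicotine 1.5, 3512 and 3272 at 3.0, and 3250 and 1734 at 4.5 mg/kg/day. Marker genes of brown fat, a tissue dense in mitochondria, had higher medians in the same arrays. The 10 brown fat genes, a list written with earlier results of these data known, had median log2 levels of 6.46 and 6.20 in saline, 6.44 and 7.88 at 1.5, 8.40 and 8.96 at 3.0, and 8.93 and 7.15 at 4.5 mg/kg/day. Their summed intensity was 1291 to 1345 in saline and nicotine 1.5 replicate 1, with 7 to 9 genes above background, and 3753 to 14773 in the other 5 arrays, with 9 or 10. Of the 10 genes 4 rose for the mean of the doses by limma and 0 fell, where 4.75% of all genes were called higher and 5.4% lower. Prdm16, a regulator of brown fat identity, and Zic1 stood at -0.74 ± 0.33 and -0.27 ± 0.69 log2 units (limma adjusted p = 0.181 and 0.814), each highest in a saline array. Ucp1, the uncoupling protein that defines brown fat, read 2.78 to 5.97 in saline and nicotine 1.5 replicate 1 and 79.6 to 4906 in the other 5 arrays. In the same 5 arrays all 6 lung genes were above background, with a summed intensity of 1426 to 12520, against 1 or 2 genes and 61.6 to 97.3 in the other 3. Chrna9 was at background in 2 of those 3, saline replicate 2 and nicotine 1.5 replicate 1. The part of brown fat or lung tissue in the Chrna9 reading was not tested.

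**Figure D3:**
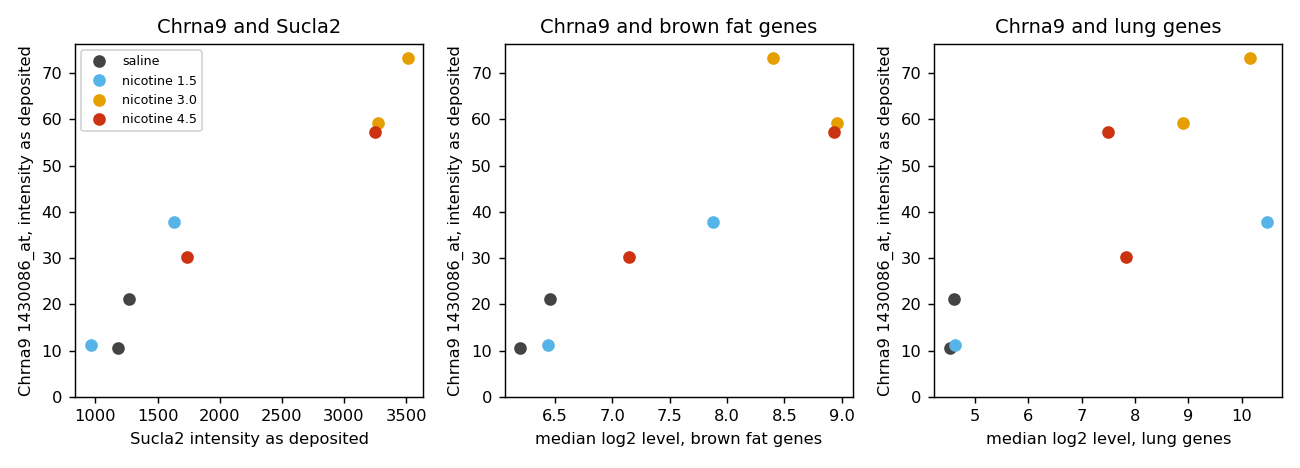
Deposited intensity of Chrna9 probe set 1430086_at (vertical axes) against the deposited intensity of Sucla2 (left) and the median log2 level of 10 brown fat genes (middle) and of 6 lung genes (right), 1 point an array, coloured by group with doses in mg/kg/day. Chrna9 reads 57.3 to 73.1 in the 3 arrays where Sucla2 reads 3250 or more, and 10.5 to 37.8 in the other 5.

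The other members above background in 5 or more arrays had nearest genes of other kinds. All correlations are of normalized levels. Chrna3 was most like Inpp5e, an inositol phosphatase of cilia (r = 0.944), Cntln, a centriole protein (r = 0.926), and Rac1, a small GTPase (r = 0.924). As deposited Rac1 ran from 1260 to 1641. It read 1338 in saline replicate 1 and 1576 in nicotine 3.0 replicate 1, where Chrna3 read 28.2 and 20.5. Chrnb2 was most like Rpl19, a ribosomal protein (r = 0.975), Inpp5d, an inositol phosphatase of blood cells (r = 0.931), and Parpbp, a DNA repair factor (r = 0.914). As deposited Rpl19 varied little, from 3109 to 3660. It read 3263 in saline replicate 1 and 3264 in nicotine 3.0 replicate 1, where Chrnb2 read 41.4 and 20.9. Parpbp read 4.02 to 22.9, at or near background. These too are the highest of many values and describe these arrays only. Between the 4 tested members the correlation over the 8 arrays ran from -0.59, for Chrna9 with Chrnb2, to 0.28, for Chrna3 with Chrnb2.

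No neuronal subunit changed with nicotine at an adjusted p under 0.05. By limma, 0 of the 4 members above the level filter were called in any comparison, where 2.48% of 13586 genes were called at 1.5, 3.72% at 3.0, 6.87% at 4.5 mg/kg/day, 10.2% for the mean of the doses and 0.802% for the trend over dose. At an unadjusted p under 0.05 the members were Chrna4 at 1.5, Chrna9 at 3.0, and both at 4.5 mg/kg/day, for the mean of the doses and for the trend. Over all genes 21.1% were under this unadjusted limit at 1.5, 25% at 3.0, 29.2% at 4.5 mg/kg/day, 30.8% for the mean of the doses and 27.2% for the trend. The slope was 0.28 ± 0.09 log2 units per mg/kg/day for Chrna9 and -0.11 ± 0.04 for Chrna4 (limma adjusted p = 0.111 and 0.131). When all 18193 genes were fitted with no level filter, 0 of 10 members were called, where 7.87% of genes were called for the mean of the doses, 2.22%, 2.95% and 5.27% for the doses in rising order and 0.0055% for the trend. The 6 members under the filter then differed from saline by -0.46 to 0.12 log2 units for the mean of the doses (limma adjusted p from 0.146 to 0.899), and 1 of them, Chrna7, had an unadjusted p under 0.05. The added 16 in log2(intensity + 16) shrinks differences of readings this low. With 2 arrays a group, a p that misses the limit does not show that levels were equal.

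**Figure D4:**
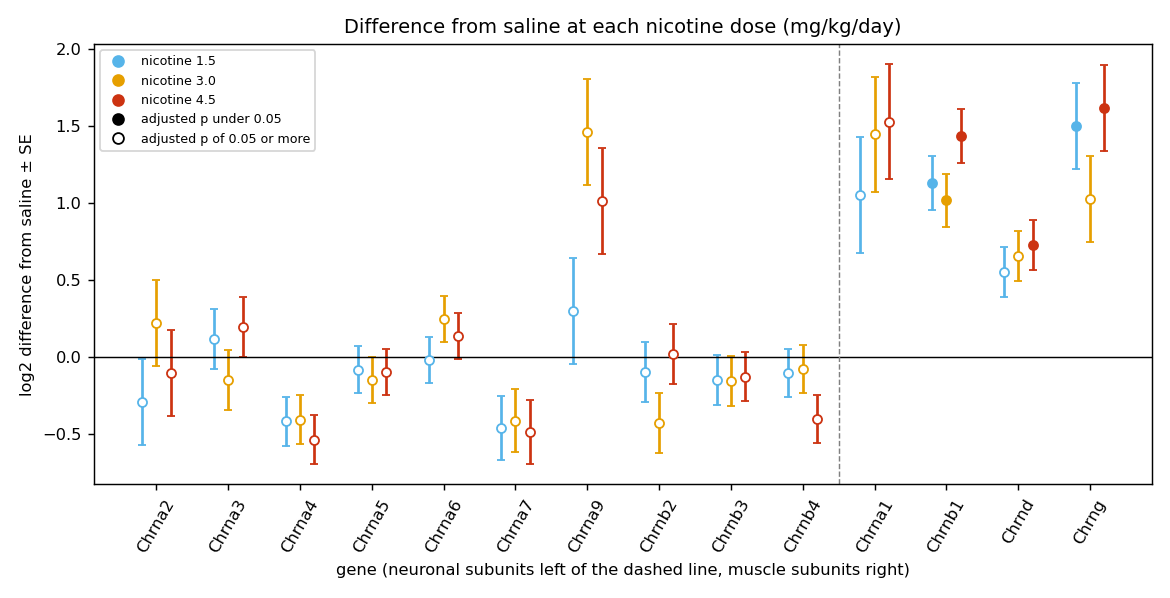
Log2 difference from saline, with its standard error, for each of the 10 neuronal subunits and 4 muscle subunits at each nicotine dose; neuronal subunits come from the fit without a level filter, muscle subunits from the fit with it, and filled points passed an adjusted p under 0.05. No neuronal point is filled, and Chrna9 at 3.0 mg/kg/day is the highest of them at 1.46.

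The muscle receptor genes were mostly above background. Of 10 genes of this receptor and its clustering machinery, 9 were so in 5 or more arrays, against 67.4% of all genes. The adult epsilon subunit, Chrne, was so in none. Of the 9 tested, 5 rose with the mean of the doses and 0 fell, where 4.75% of all genes were called higher and 5.4% lower. The median of the 9 was 0.98 log2 units against 0.07 over all genes. Chrnb1, its beta subunit, read 83.7 and 61.9 in saline and 145 to 206 under nicotine and rose by 1.19 ± 0.14 (limma adjusted p = 0.00653). Chrng, the fetal gamma subunit, rose by 1.38 ± 0.23, Chrnd, the delta subunit, by 0.64 ± 0.13, and Rapsn, which clusters the receptor, by 0.98 ± 0.15 (limma adjusted p = 0.0177, 0.0326 and 0.0137). The calls for Chrng and Rapsn were lost without saline replicate 2 (adjusted p = 0.0503 and 0.0536) or without either nicotine 3.0 array (0.0528 to 0.0632), and that for Chrng also without nicotine 4.5 replicate 1 (0.0510). The call for Chrnd was lost in 11 of 19 alternatives, among them those without any 1 array but nicotine 1.5 replicate 1 (up to 0.117), with array weights (0.0840), with values as deposited (0.0699) and without the 2 arrays highest in liver genes (0.120). Chrna1, the alpha subunit, read 218 and 87.5 in saline and 262 to 444 under nicotine and rose by 1.34 ± 0.31 (limma adjusted p = 0.0410). That call was lost in 11 of 19 alternatives, among them those without any 1 array but saline replicate 1 (up to 0.128), where the difference without saline replicate 2 was 0.77. Median levels of 8 skeletal muscle genes were 11.76 and 11.32 in saline and higher in every nicotine array, at most 12.44, and their part in these rises was not tested. Whether muscle and neuronal subunits differed in their response was not tested.

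Genes that assemble neuronal receptors or bind them at the cell surface were 13 in number. Of these, 8 were above background in 5 or more arrays, against 67.4% of all genes. Of the 12 tested, 3 fell with the mean of the doses and 0 rose (median -0.17, against 0.07 over all genes). Of all genes 5.4% were called lower and 4.75% higher. Nrn1, neuritin, a surface protein that promotes neurite growth, read 387 and 432 in saline, 69.6 and 119 at nicotine 1.5, 42.7 and 68.0 at 3.0, and 45.6 and 50.6 at 4.5 mg/kg/day. Every nicotine array lay below both saline arrays, and the fall was -2.33 ± 0.21 log2 units for the mean of the doses (limma adjusted p = 0.00208). Lypd6b, a Ly6-type protein that modulates nicotinic currents, read 66.9 and 56.7 in saline, 36.8 and 27.6 at 1.5, 11.1 and 6.96 at 3.0, and 12.4 and 14.7 at 4.5 mg/kg/day. It fell by 1.14 ± 0.16 log2 units for the mean of the doses (limma adjusted p = 0.0115), and at 3.0 and 4.5 mg/kg/day all 4 arrays were at background. Its relative Lypd6 read 72.0 and 52.8 in saline and 18.5 to 32.2 under nicotine, a change of -0.78 ± 0.16 (limma adjusted p = 0.0337). The Lypd6 call was lost without either saline array (adjusted p = 0.108 and 0.0695), without either nicotine 3.0 array (up to 0.106) and without either nicotine 4.5 array (up to 0.0695). In all it was lost in 9 of 18 alternatives, also with array weights (0.0718) and without the 2 arrays highest in liver genes (0.0556). Ric3, the chaperone of alpha7, was at background in all 8 arrays, with intensities of 5.28 to 14.8. All 8 tested stomach genes and all 6 tested intestine genes also fell with the mean of the doses. Of these, Cym, Gkn1, Tff2, Atp4a and Atp4b had every nicotine group mean under the level filter of 4.945. They entered the test through the saline arrays. The group means of Fabp2, Apoa4, Alpi and Lct were under the filter at 3.0 and 4.5 mg/kg/day. Medians of the 7 intestine genes went from 10.04 and 8.51 in saline to between 4.57 and 5.25 under nicotine. Their part in the falls of Nrn1, Lypd6 and Lypd6b was not tested.

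Genes that make and break down acetylcholine, the natural ligand, did not pass. Of 9 such genes 6 were tested and 0 were called by limma in any comparison, with 4 at an unadjusted p under 0.05 for the mean of the doses, where 30.8% of all genes were. The median difference was 0.49 log2 units, against 0.07 over all genes. For the mean of the doses Slc44a2, a choline transporter, passed without nicotine 4.5 replicate 1 (adjusted p = 0.0432) or as the mean of its probe sets (0.0388). The smallest p were those of Slc44a2 at 1.81 ± 0.47 for nicotine 1.5 and Prima1, which anchors acetylcholinesterase in membranes, at 0.66 ± 0.18 for nicotine 4.5 (limma adjusted p = 0.0970 and 0.0758). The Prima1 saline mean, a log2 level of 4.94, lay just under the level filter of 4.945, so Prima1 entered the test through the nicotine arrays. Chat, which makes acetylcholine, read 11.6 and 9.85 in saline, 33.1 and 18.9 at nicotine 1.5, 30.1 and 25.5 at 3.0, and 15.5 and 17.4 at 4.5 mg/kg/day. It was above background in the 4 arrays at 1.5 and 3.0 alone and stood at 0.78 ± 0.22 at 3.0 and 0.59 ± 0.18 for the mean of the doses (limma adjusted p = 0.0972 and 0.0801). The Chat saline mean, a log2 level of 4.71, was also under the level filter, so Chat entered the test through the nicotine arrays. For the mean it passed without nicotine 1.5 replicate 2 (0.0438) or with 1 added to intensities in place of 16 (0.0458). The vesicular transporter Slc18a3 and the choline transporter Slc5a7, also markers of cholinergic nerve endings, were at background in all 8 arrays. So were all 3 measured muscarinic receptors, Chrm1, Chrm3 and Chrm4, the second class of acetylcholine receptor, and none of them was tested. Of 5 measured genes of nicotine metabolism 4 were tested and 0 were called, with 2 at an unadjusted p under 0.05 for the mean of the doses, beside the 30.8% of all genes. Aox1, an aldehyde oxidase that acts on the nicotine iminium ion, had a slope of 0.22 ± 0.06 log2 units per mg/kg/day, and Ugt2b1, a glucuronosyltransferase, stood at -0.93 ± 0.33 for the mean of the doses (limma adjusted p = 0.0727 and 0.115). Ugt2b1 read 17.4 and 68.0 in saline and 7.80 to 12.4 under nicotine, and was above background in the 2 saline arrays alone. Its nicotine group means, log2 levels of 4.69 to 4.75, lay under the level filter of 4.945, so it entered the test through saline. Without saline replicate 1 the Ugt2b1 difference was -1.60. Saline replicate 2, then left alone, was the array highest in liver genes, with a median of 11.52. The part of liver tissue in this reading was not tested. Chrna10, which pairs with alpha9 in hair cells, was not analysed here.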

How the data were processed

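The authors deposited linear intensity values for 45101 probe sets on 8 arrays; summarization, background correction and scaling are not given in the sources used here. Values were taken as log2(intensity + 16) and quantile normalized. Gene names came from the platform annotation, updated by Entrez ID. For each gene the probe set of highest mean was used. Genes whose mean lay below a filter at the 40th percentile were dropped, leaving 13586 of 18193 genes. Group means were fitted with limma 3.58.1 in R 4.3.3 over all 8 arrays, with 4 residual and 6.85 total degrees of freedom. Tests were two-sided, and p-values were adjusted by Benjamini-Hochberg over all genes tested, with a limit of 0.05. The fit was also run on simulated arrays with independent noise and known shifts. Those arrays held no differences in tissue, so that run cannot show how the fit handles them. Errors of differences are standard errors. The number of arrays limits the precision. All 10 members are named; in each pathway list, up to 4 called genes, or otherwise the 2 with the smallest p over the comparisons, with Chrna1 and Chat added after their values were seen; levels are given for further list genes. The members and lists were chosen with earlier results of these data known. Alternatives changed the normalization, added constant, filter, probe set choice, block, weights and arrays; a fit of every probe set was added after seeing the data.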

Additional observations from a re-analysis of the deposited data

How the results depend on the processing

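Over 19 alternatives to the fit, the count of called members stayed at 0 at 1.5 and 4.5 mg/kg/day and for the trend. Leaving out 1 array gave counts of 0 to 1 for the mean of the doses and of 0 to 1 at 3.0 mg/kg/day, the gene being Chrna9. Chrna9 kept a positive difference in all 17 alternatives that tested it at 3.0 mg/kg/day (0.75 to 2.18 log2 units, adjusted p from 0.0487 to 0.333), and Chrna4 a negative one for the mean of the doses (-0.80 to -0.19, adjusted p from 0.0598 to 0.259). At 1.5 mg/kg/day Chrna9 was negative without nicotine 1.5 replicate 2 (-0.13) and without the 2 arrays highest in liver genes (-0.31). The differences of Chrna3 and Chrnb2 changed sign in some alternatives. With the 90th percentile of receptor probe sets as the background limit, 5 member probe sets were above it in 5 or more arrays in place of 3, both additions being Chrna4; the other limits gave 3 or 4. Without the 2 arrays highest in liver genes no member was called. Deviations of same-numbered arrays correlated at r from -0.221 to 0.334 over genes, highest for saline with nicotine 1.5. With 2 arrays a group that differ in tissue, these values cannot decide whether the numbers pair the samples. With the replicate number as a block 0 members were called. The calls of Chrna1 (limma adjusted p = 0.0531), Chrnd (0.0646) and Lypd6 (0.0611) were lost. The calls over all genes for the mean of the doses went from 1380 to 849. Without 1 array those calls ranged from 355 to 1490. Leaving out an array leaves 1 in its group, which is assumed to vary like the others. Most member readings were at background, where differences in level cannot be read.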
